A study of Bos taurus with 2 samples.

Results

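A set of 7 transcription regulators of male germ cells was followed in seminiferous tubules, the tubes that produce sperm: MYBL1, CREM, TBPL1, RFX2, BRDT, SPZ1 and FHL5. They were chosen by symbol, and each of the 7 matched 1 of the 24616 genes listed in both deposited tables. RNA was sequenced from cut pieces of tubule, flash frozen after the testes were removed, of a Bos taurus calf aged 3 months and of another aged 9 months. The labels give no breed, treatment or genotype, and there was 1 library for either age. Total counts were 37600534 at 3 months and 29782234 at 9 months. Each value below compares these 2 libraries, has no replicate check and carries no p-value. No nucleotide or protein sequence was used here.

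Male germ cells pass from dividing spermatogonia through meiosis to haploid spermatids, and each step uses its own transcription regulators, many of them testis forms of widely expressed proteins. MYBL1 (A-MYB) and BRDT act in spermatocytes, where MYBL1 switches on meiotic and piRNA genes and BRDT reads acetylated histones. RFX2 drives genes of the cilium and sperm tail. CREM and TBPL1, a relative of the TATA-binding protein, are needed for spermatid genes such as those of protamines and transition proteins. FHL5 (also called ACT) is a testis coactivator of CREM. SPZ1 is a basic helix-loop-helix leucine zipper protein of the testis.

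All 7 regulators were higher in the 9-month library, from 4.82-fold for TBPL1 to at least 1020-fold for SPZ1. They fell into a group that was already well detected at 3 months (TBPL1 and MYBL1), an intermediate gene (CREM) and a group with 57 counts or fewer at 3 months (RFX2, BRDT, FHL5 and SPZ1). Summed over the 7 genes, expression was 36.3 CPM at 3 months and 682 CPM at 9 months. CPM is the count of a gene relative to the library size, here scaled by TMM, which balances the libraries over a trimmed set of genes. The fold of this sum was 18.8, with a 95% exact counting interval of 17.7 to 19.95. Folds below are given with that interval in brackets, which covers counting error only. The labelled tissue showed its defining cells in both libraries, with the 8 Sertoli cell markers at 4074 and 758 CPM in sum and the 4 germ cell markers of all stages at 67.2 and 987 CPM. In bulk tissue, a larger share of germ cells and more RNA per germ cell cannot be told apart.

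A difference was called at 2-fold or more if its interval left out a ratio of 1. By this rule 7 of the 7 regulators were higher and 0 lower, whereas among the 18025 genes with at least 10 counts over both libraries 27.7% were higher and 23.2% lower. CREM, RFX2, BRDT, FHL5 and SPZ1, 5 of the 7, were at least 16-fold higher, a size reached by 7.62% of measured genes. The median log2 ratio of the 7 was 6.73, beside a median near 0 (0.0048) over all measured genes. The 7 were chosen for known roles in germ cells and with earlier results of these data in view, so the count is a description and not a test.

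**Figure D1:**
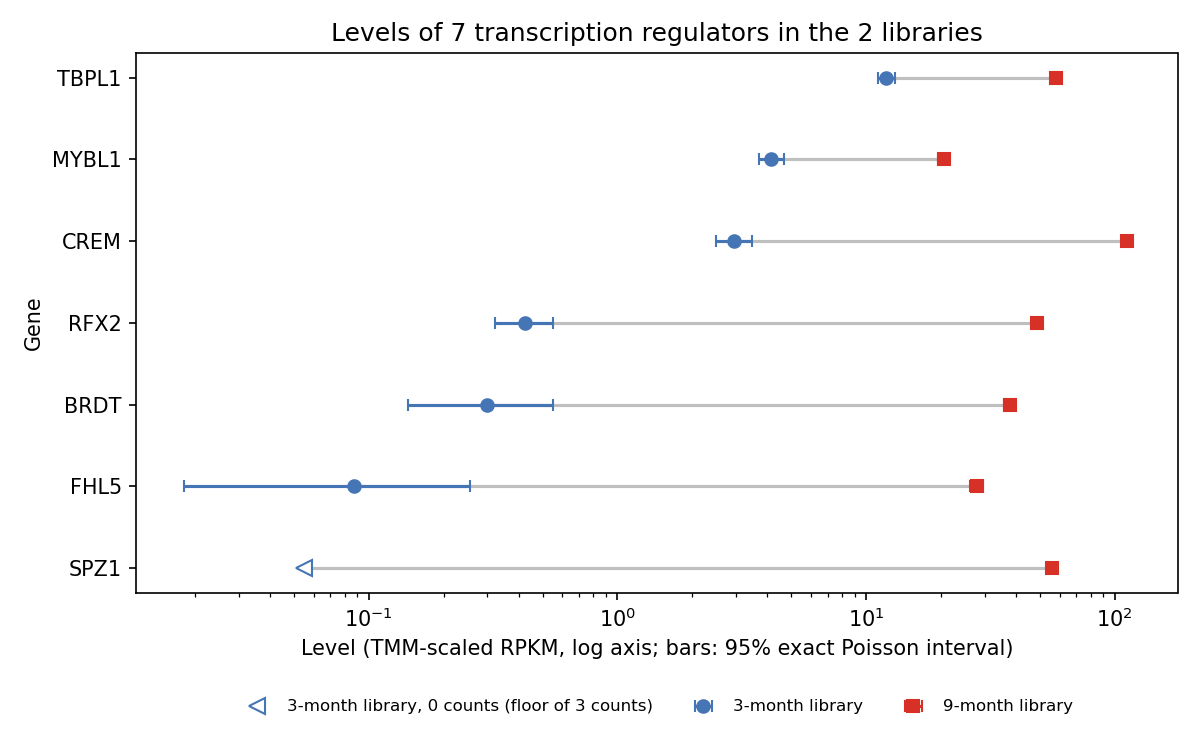
Level of each regulator in TMM-scaled RPKM on a log axis, with the 3-month library as blue circles and the 9-month library as red squares, and bars for the 95% exact Poisson interval. The blue triangle marks SPZ1, which had 0 counts at 3 months, at its floor of 3 counts. In the 3-month library the levels spread from that floor to 12.1 for TBPL1, while in the 9-month library all 7 lie between 20.5 and 112.

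TBPL1 (ENSBTAG00000035370), which takes the place of the TATA-binding protein at a subset of promoters, had 656 counts at 3 months and 3471 at 9 months. This was 20.5 and 99.0 CPM, a 4.82-fold difference [4.44 to 5.25]. It was the most abundant of the 7 at 3 months, at 12.1 RPKM (CPM per kilobase of gene length, by which genes of different length can be compared) against 58.2 at 9 months. It made up 60.3% of the summed level of the 7 genes at 3 months and 16.1% at 9 months.

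MYBL1 (ENSBTAG00000011981) had 293 and 1583 counts, or 9.17 and 45.2 CPM. It was 4.93-fold higher [4.35 to 5.60], and its interval overlapped that of TBPL1. The level ratio of MYBL1 to TBPL1 was 0.345 at 3 months and 0.353 at 9 months. In level MYBL1 was second of the 7 at 3 months, with 4.16 RPKM, and last at 9 months, with 20.5 RPKM. These 2 genes had the smallest differences of the set, although 85.2% of measured genes had a lower log2 ratio than TBPL1.

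CREM (ENSBTAG00000016060) had 140 counts at 3 months and 5855 at 9 months, which was 4.38 and 167 CPM. It was 38.1-fold higher [32.2 to 45.4], an interval that overlapped those of none of the other members. At 9 months CREM had the highest level of the 7, with 112 RPKM, above 95.9% of measured genes. Its level was 0.245 times that of TBPL1 at 3 months and 1.93 times at 9 months, so that the order of the pair was inverted. The CREM gene gives rise to both activator and repressor isoforms, and the deposited count pools them.

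RFX2 (ENSBTAG00000017661) went from 57 counts (1.78 CPM) to 7180 (205 CPM). It was 115-fold higher [88.5 to 152] and had the highest CPM of the 7 at 9 months, although with its length of 4192 bases it was only the fourth in level, at 48.9 RPKM. BRDT (ENSBTAG00000003724), the testis member of the BET bromodomain family, went from 10 counts (0.313 CPM) to 1389 (39.6 CPM), a 127-fold difference [68.6 to 265]. The intervals of RFX2 and BRDT overlapped, and at 3 months their levels of 0.426 and 0.299 RPKM could not be ordered, with a ratio of 1.43 [0.721 to 3.13].

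FHL5 (ENSBTAG00000001803), a LIM-domain coactivator of CREM, had 3 counts (0.0939 CPM) at 3 months and 1052 (30.02 CPM) at 9 months. The ratio was 320 [109 to 1553], a wide interval set by the 3 counts. SPZ1 (ENSBTAG00000024593) had 0 counts at 3 months and 3358 (95.8 CPM) at 9 months. Against a floor of 3 counts in place of the 0, or 0.0939 CPM, SPZ1 was at least 1020-fold higher, a bound that was 678-fold with reference genes, and 99.9% of measured genes had a lower log2 ratio. SPZ1 was not detectable at 3 months at this depth, and at 9 months its level of 56.0 RPKM could not be separated from that of TBPL1 (ratio of TBPL1 to SPZ1 1.04 [0.991 to 1.09]).

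In the 9-month library the order of levels was CREM, TBPL1, SPZ1, RFX2, BRDT, FHL5 and MYBL1, and each neighbouring pair other than TBPL1 and SPZ1 differed beyond counting error. In the 3-month library TBPL1, MYBL1, CREM and RFX2 followed each other with levels that differed beyond counting error, whereas the neighbouring levels of RFX2, BRDT, FHL5 and SPZ1 could not be separated. The level of CREM relative to its coactivator FHL5 was 33.8 at 3 months, with only 3 FHL5 counts behind it, and 4.03 at 9 months.

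**Figure D2:**
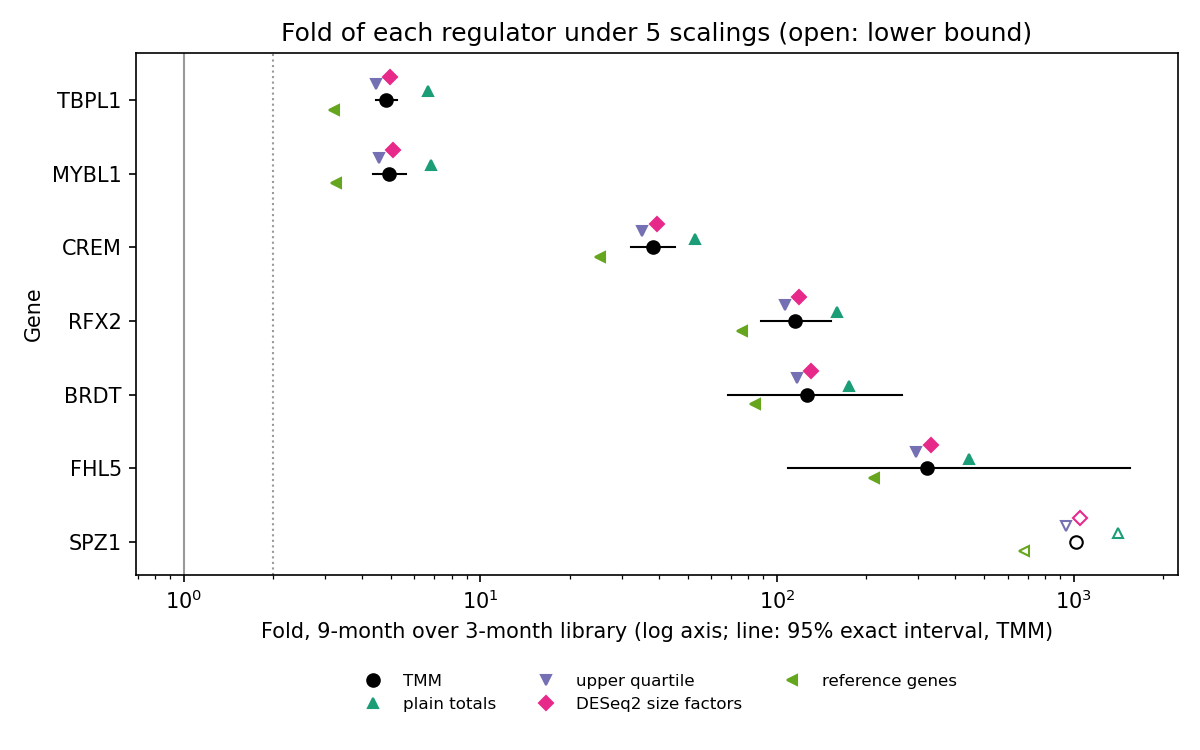
Fold of each regulator, 9-month over 3-month library, on a log axis. Black circles are TMM values with the 95% exact interval as a line, coloured symbols are 4 other scalings, and open symbols for SPZ1 are lower bounds; the dotted line marks 2-fold. Scaling moves all 7 genes together, the lowest value being 3.21 for TBPL1, and none reaches the 2-fold line.

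The scaling between libraries matters for the sizes but not for the order of the 7 genes. Compared with TMM, log2 ratios shifted by 0.47 with plain library totals, by -0.11 with upper-quartile factors, by 0.04 with DESeq2 size factors and by -0.59 with the summed counts of 8 reference genes, a sum in which abundant genes weigh most. Over these scalings TBPL1 ranged from 3.21-fold to 6.68-fold, CREM from 25.3-fold to 52.8-fold and RFX2 from 76.3-fold to 159-fold, and all 7 regulators stayed higher. The share of higher genes among all those called was 54.5% with TMM, 71.2% with plain totals and 35% with reference genes.

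**Figure D3:**
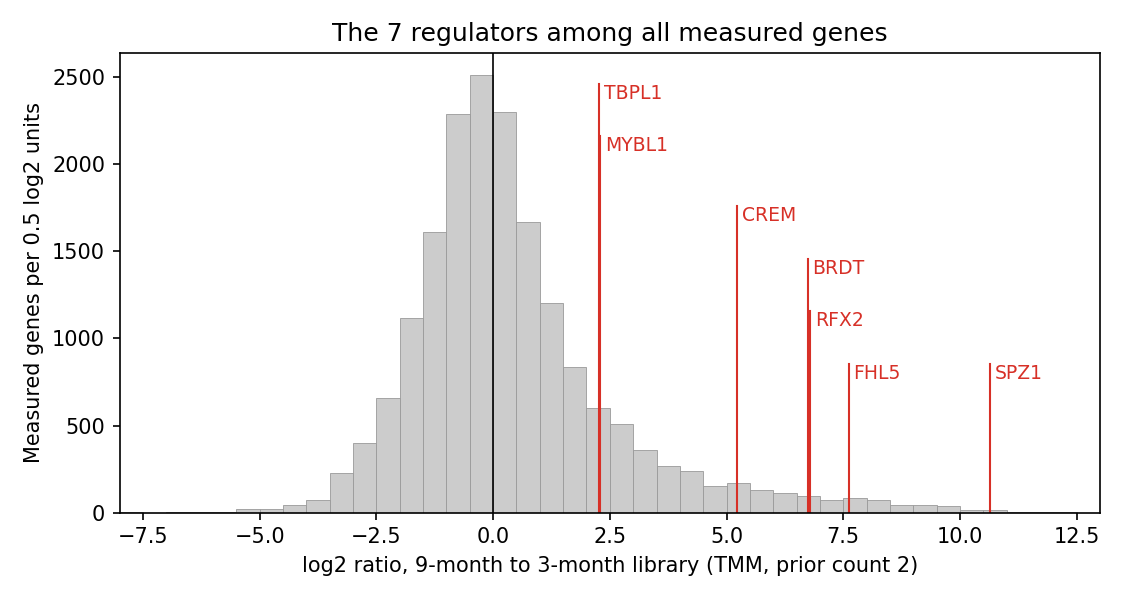
Number of measured genes (of 18025) per 0.5 units of log2 ratio, 9-month to 3-month library, with red lines at the values of the 7 regulators; line heights only separate the names. TBPL1 and MYBL1 sit at 2.27 and 2.29 on the shoulder of the distribution, CREM at 5.23, and the others from 6.73 to 10.6 in its sparse right tail.

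All 4 germ cell markers of all stages were higher at 9 months, beside 27.7% of all measured genes. The regulators were set against a pair of these markers, DDX4 and DAZL, RNA-binding proteins found in germ cells of many stages. DDX4 went from 755 to 14073 counts and was 17.0-fold higher [15.8 to 18.3], and DAZL went from 921 to 10665 counts and was 10.6-fold higher [9.87 to 11.3]. Of the other markers on that list, RNF17 was 14.7-fold higher [13.4 to 16.2]. TEX101, with only 10 counts at 3 months, was 219-fold higher [119 to 458]. The words of all stages are the name of the list, and whether each of the 4 marks every stage was not tested. TBPL1 and MYBL1 differed less than all 4 markers. The level of MYBL1 was 43.1% of that of DDX4 at 3 months and 12.5% at 9 months, and the level of TBPL1 was 125% and 35.4% of it. These ratios are formed within a library and do not depend on the scaling. They come from bulk tissue and do not show which cells carried the TBPL1 or MYBL1 RNA.

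The other 5 differed more than DDX4, DAZL and RNF17, whereas the fold of TEX101 was above those of CREM, RFX2 and BRDT, with an interval that overlapped those of RFX2 and BRDT. CREM had 30.5% of the DDX4 level at 3 months and 68.5% at 9 months. RFX2 had 4.403% and 29.8%, and BRDT 3.09% and 23.0%. FHL5 had 0.903% and 17.0%, and SPZ1 went from 0 to 34.1%. Relative to DDX4 the fold of CREM was 2.24, that of RFX2 6.76, that of BRDT 7.45 and that of FHL5 18.8. With DAZL in place of DDX4 the directions were the same for all 6 genes with a fold.

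Set beside marker lists of germ cell stages, the 7 regulators spanned most of their range. The 9 measured meiotic prophase markers had log2 ratios from 2.63 to 6.94 with a median of 4.80, and all 9 were higher. TBPL1 and MYBL1 lay below the lowest of them, and CREM, RFX2 and BRDT lay within. The 5 measured late spermatocyte markers ran from 2.55 to 8.91 with a median of 6.71, and all 5 were higher. That range held CREM, RFX2, BRDT and FHL5. The 7 round spermatid markers ran from 6.41 to 10.99, a range that also held RFX2, BRDT, FHL5 and SPZ1. The 7 elongating spermatid markers ran from 6.76 to 12.06, a range that held RFX2, FHL5 and SPZ1. Their median of 11.2 was above every regulator. Of 6 measured spermatogonia markers 2 were higher and 4 within 2-fold or with an interval that included 1, with a median of 0.67; the share of higher genes is close to the 27.7% over all measured genes. These calls moved with the scaling: GFRA1 and UCHL1 were also higher with plain totals, ZBTB16 came within 2-fold with upper-quartile factors and reference genes, NANOS2 (10 and 3 counts) was lower with the same pair of scalings, and KIT was lower with reference genes.

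**Figure D4:**
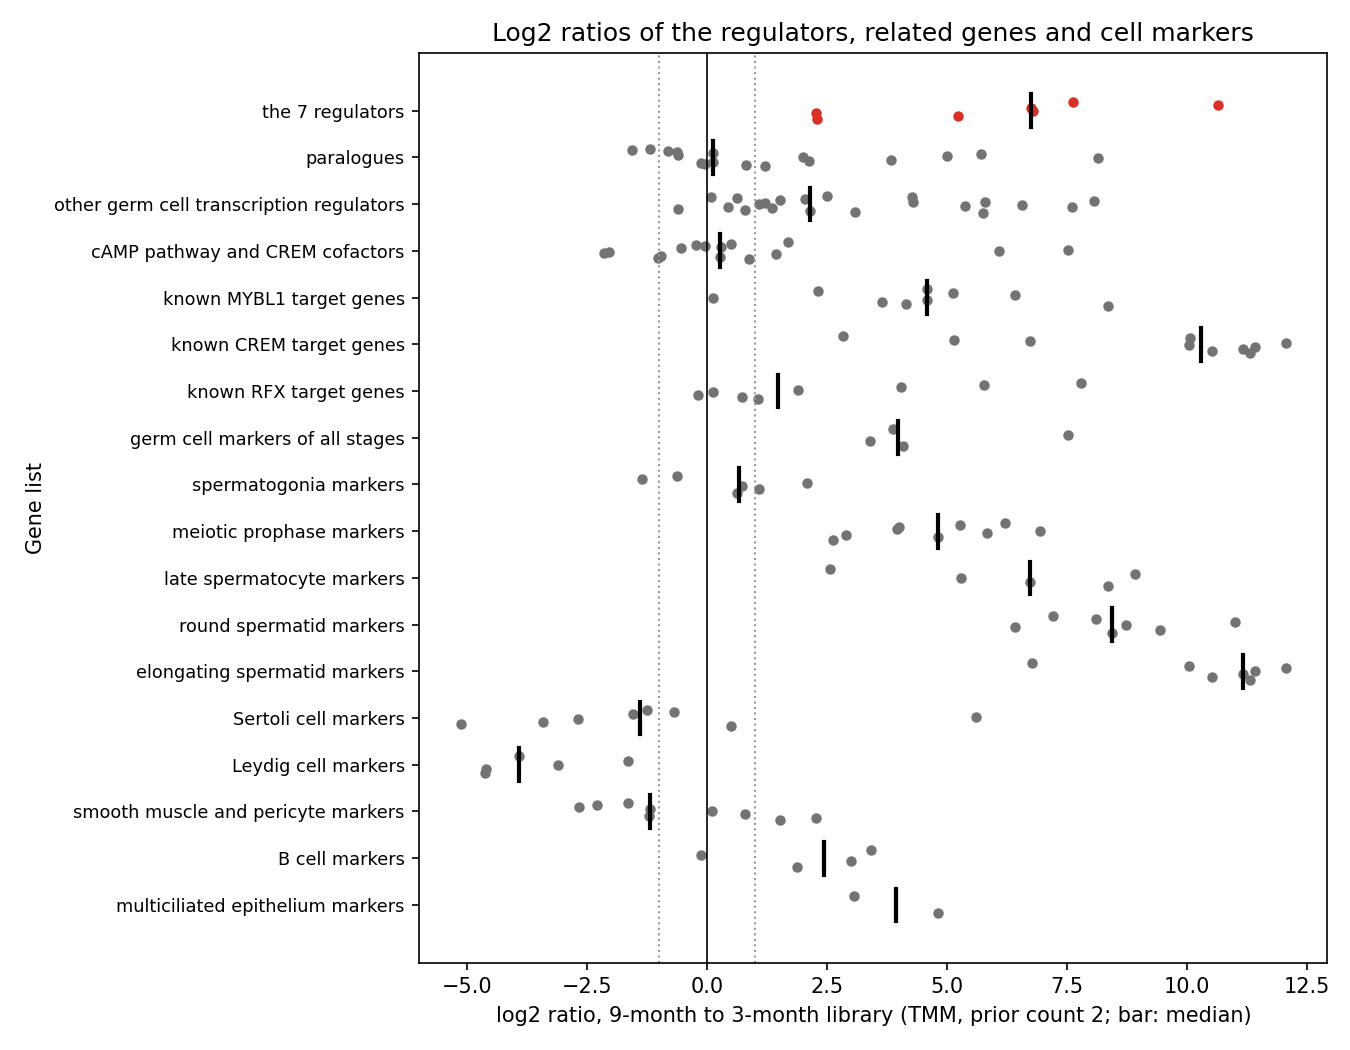
Log2 ratio, 9-month to 3-month library, of each measured gene in the regulator set (red) and in related gene and cell marker lists (grey), with a black bar at the median of each list and dotted lines at 2-fold. The regulators, with a median of 6.73, overlap the meiotic, late spermatocyte, round spermatid and elongating spermatid markers. The regulators lie apart from the Leydig cell markers, all of which are below 0. Some genes appear in several of the lists.

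The regulators other than SPZ1 were compared with relatives of the same family by the share of the family's summed level within a library. This share is free of the scaling between libraries. Among 17 measured paralogues there were 7 higher and 2 lower ones, and 8 stayed within 2-fold; their median log2 ratio was 0.13, and over all measured genes 27.7% were higher and 23.2% lower. Of the 7 higher paralogues 6 were RFX genes and the other was MYB.

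CREM changed its place among its relatives the most in percentage points. It held 8.11% of the summed level of CREM, CREB1 and ATF1 at 3 months (95% interval 6.89 to 9.48) and 78.5% at 9 months (77.7 to 79.2). CREB1, which binds the same cAMP response element, had 491 and 523 counts (0.971-fold [0.857 to 1.10]), and ATF1 had 2035 and 2032 counts (0.910-fold [0.856 to 0.968]). CREM was the 1 gene of the family with a called difference, and both relatives stayed within 2-fold under each scaling tried.

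TBPL1 held 30.8% of the TBP family level at 3 months (28.3 to 33.4) and 66.1% at 9 months (64.1 to 68.1). TBP, the general TATA-binding factor, was listed under 2 Ensembl genes with nearly equal counts of 236 and 235 at 3 months and 261 and 298 at 9 months. Their sum differed by 1.08-fold [0.955 to 1.23]. The listed lengths of these entries were only 654 and 465 bases and reads may be split between them, so the level of TBP is uncertain; by counts alone TBPL1 already held 58.2% at 3 months and 86.0% at 9 months. TBPL2, the oocyte member, had 1 and 5 counts and was not measured.

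FHL5 held 0.162% of the FHL family level at 3 months (0.0335 to 0.473) and 52.4% at 9 months (50.4 to 54.3). Its relatives FHL1, FHL2 and FHL3, which are typical of muscle and other somatic tissue, went the other way. FHL2 had 567 and 208 counts and was 2.99-fold lower [2.55 to 3.52], FHL3 was 2.28-fold lower [2.001 to 2.61], and FHL1 was 1.77-fold lower [1.64 to 1.91] and so within 2-fold, although it passed 2-fold with reference genes. With plain totals FHL3 came within 2-fold.

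BRDT held 0.166% of the summed level of BRDT, BRD2 and BRD3 at 3 months (0.0795 to 0.304) and 16.96% at 9 months (16.2 to 17.8). BRD2 was the most abundant of these in both libraries, with 372 and 407 CPM. BRD3 was 1.56-fold lower [1.46 to 1.65] and so within 2-fold, although it passed 2-fold with reference genes. The listed length of BRDT, 1048 bases, was shorter than those of BRD2 and BRD3 (2412 and 3034), and by counts alone its share at 9 months was 7.98%.

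MYBL1 held 33.7% of the MYB family level at 3 months (30.6 to 36.8) and 57.2% at 9 months (55.4 to 58.9). MYB, which acts in stem and progenitor cells, was 2.33-fold higher [1.94 to 2.80], a call that was lost with reference genes. MYBL2, a gene of dividing cells, was 1.76-fold higher [1.59 to 1.95] and passed 2-fold with plain totals. MYBL2 had the highest level of the family at 3 months and MYBL1 at 9 months.

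RFX2 held 2.33% of the RFX family level at 3 months (1.77 to 3.01) and 35.2% at 9 months (34.5 to 35.9), when it was the most abundant of the 8 genes. Besides RFX2 itself, 6 of its 7 paralogues were higher at 9 months. RFX4 went from 9 to 3352 counts and was 340-fold higher [179 to 743], a fold above that of RFX2 with an interval that did not overlap it. RFX8 was 63.9-fold higher [32.2 to 149], RFX6 34.6-fold [22.5 to 56.1] and RFX3 14.6-fold [10.9 to 20.1]. RFX1 and RFX5 were 4.36-fold [3.83 to 4.97] and 4.003-fold [3.53 to 4.55] higher. RFX7, the most abundant RFX gene at 3 months, was 1.52-fold lower [1.43 to 1.63] and so within 2-fold; it was at least 2-fold lower with reference genes.

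**Figure D5:**
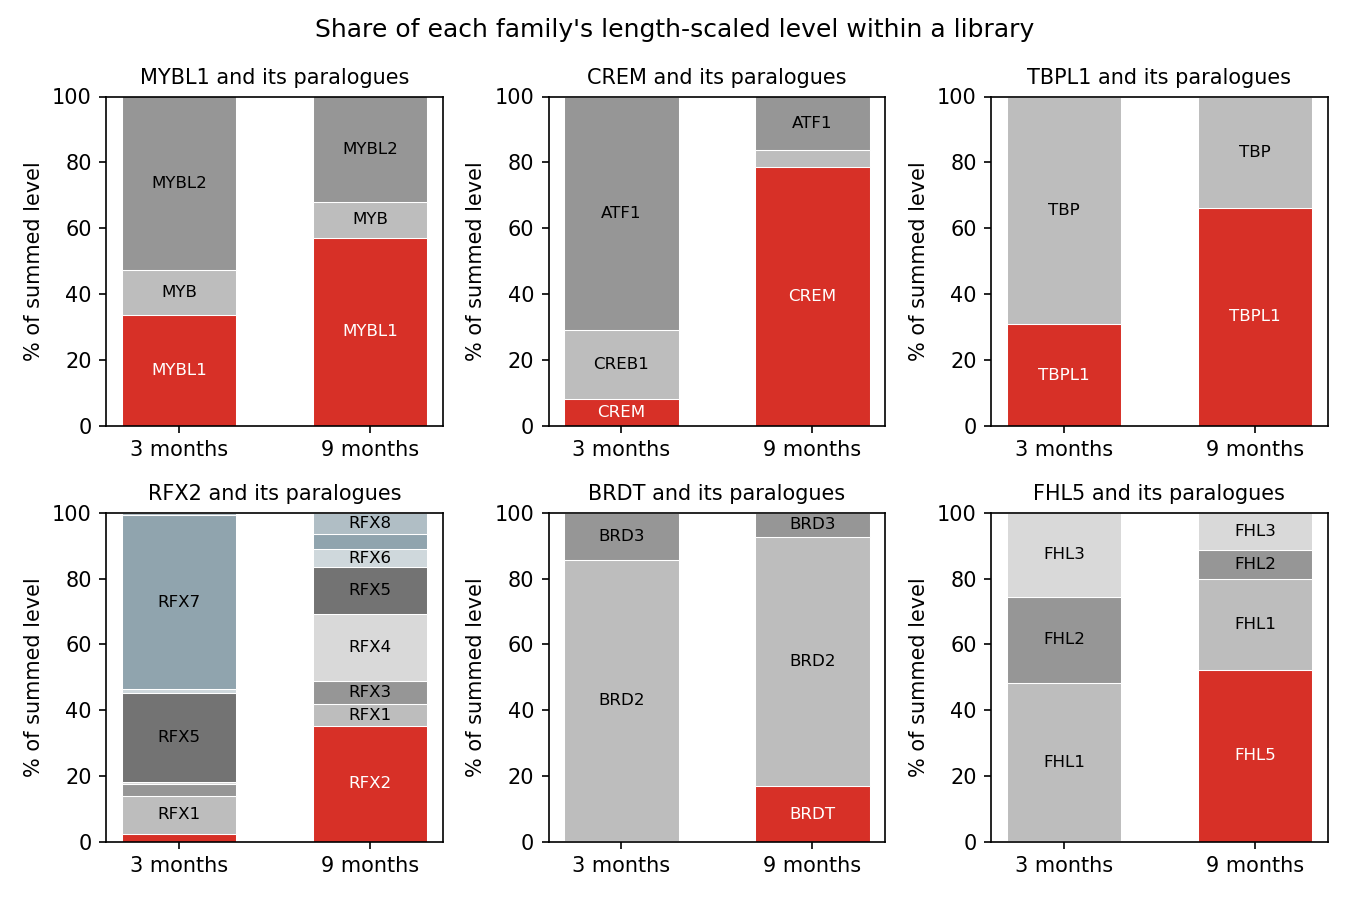
Share of the summed length-scaled level (percent of family total) held by each family member in the 3-month and 9-month libraries. The regulator of the set is in red and its paralogues are in greys, and shares under 5.5% carry no name. The red share is larger at 9 months in all 6 families, from 8.11% to 78.5% for CREM and from 0.166% to 16.96% for BRDT.

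The cAMP pathway that acts through CREM, and the cofactors of CREM, held genes with calls in both directions. Among 15 genes, 4 had a higher call, 3 a lower call and 8 neither, shares close to the 27.7% and 23.2% over all measured genes, and the median log2 ratio was 0.26. KIF17, a kinesin motor known to carry FHL5 out of the nucleus in spermatids, had 78 and 16096 counts and was 188-fold higher [151 to 238]. ADCY10, the soluble adenylyl cyclase of sperm, was 76.4-fold higher [45.3 to 140], and the general factor gene GTF2A1 was 3.21-fold higher [2.98 to 3.45]. PRKAR2B and ADCY3, a regulatory subunit of protein kinase A and a membrane adenylyl cyclase, were 4.44-fold [4.204 to 4.70] and 4.11-fold [3.79 to 4.47] lower. Calls near the threshold were less firm: PRKACB, 2.03-fold lower [1.94 to 2.12], came within 2-fold with DESeq2 size factors and plain totals, and PRKAR2A, 2.70-fold higher [2.50 to 2.93], with reference genes. PRKAR1B, within 2-fold by TMM, was lower with upper-quartile factors and reference genes, and PRKACA was higher with plain totals. The coactivator gene CREBBP was 1.45-fold lower and EP300 was 1.23-fold higher, both within 2-fold, and CREBBP was at least 2-fold lower with reference genes.

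Other transcription regulators of germ cells were looked up from a list of 24, of which 21 were found. The call was higher for 16 and lower for 0, and 5 stayed within 2-fold; the median log2 ratio was 2.14, beside 27.7% of all measured genes higher. KCTD19, which works with the meiotic repressor ZNF541, had 43 and 13104 counts and was 278-fold higher [206 to 384]. GTF2A1L, the germ cell form of the factor TFIIA that pairs with TBP-type proteins, had 7 and 1884 counts and was 245-fold higher [119 to 611]. DMRTB1 was 75.5-fold higher [32.1 to 234], and HSFY2 was at least 59.6-fold higher, from 0 to 196 counts. With reference genes TAF4B, ZBTB16, DMRT1 and PRDM9 came within 2-fold, ZBTB16 with upper-quartile factors as well, and PRDM9 is uncertain because its counts were summed over 2 Ensembl genes. The 5 within 2-fold were STRA8, TAF7L, HSF2, FOXO1 and BCL6B, named after their values were seen; STRA8 and FOXO1 passed 2-fold with plain totals, and TAF7L was at least 2-fold lower with reference genes.

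Genes known from the mouse as targets of these regulators were counted next. Most genes on the CREM target list are also on the elongating spermatid marker list. The CREM and MYBL1 target lists each share a gene with the late spermatocyte markers. These target lists are therefore not separate from the stage lists above. Of 9 listed MYBL1 targets, mostly piRNA pathway genes, 8 were higher and TDRD3 was not, beside 27.7% of all measured genes higher. The median log2 ratio of the 9 was 4.58. TDRD5 had 79 and 7526 counts and was 86.8-fold higher [69.6 to 110], TDRD1 was 24.2-fold higher [20.9 to 28.2] and TDRD12 4.99-fold. MYBL1 itself, at 4.93-fold, differed less than 8 of the 9 targets, TDRD3 being the exception, although the interval of TDRD12 overlapped its own.

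All 10 listed CREM targets were higher, beside 27.7% of all measured genes, and their median log2 ratio was 10.3. CAPZA3, an actin-capping subunit of spermatids, went from 1 to 3393 counts, a ratio of 3093 [555 to 122204]. SMCP, of the sperm mitochondrial capsule, went from 4 to 6786 counts and was 1547-fold higher [604 to 5678]. GAPDHS, the sperm glycolytic enzyme, was 35.7-fold higher [30.2 to 42.4] and ACE 7.12-fold higher [6.50 to 7.81], 2 values below the fold of CREM itself. GAPDHS had an interval that overlapped that of CREM. ACE already had 528 counts at 3 months, and the deposited count is per gene and does not separate its transcripts.

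Of 8 listed RFX targets 5 were higher, beside 27.7% of all measured genes, and the median log2 ratio of the 8 was 1.47. MEIG1, needed to build the sperm tail, went from 9 to 2632 counts and was 267-fold higher [140 to 584]. SPAG6, of the axoneme's central pair, was 56.8-fold higher [42.2 to 78.3], FANK1 16.95-fold [13.1 to 22.3] and ALMS1 3.69-fold [3.56 to 3.84]. Among the targets with a role in cilia of many cell types, IFT172 was 2.09-fold higher [1.94 to 2.25] and came within 2-fold with reference genes and upper-quartile factors, while IFT88, BBS4 and DYNC2LI1 were within 2-fold. IFT88, 1.65-fold higher [1.51 to 1.81], passed 2-fold with plain totals.

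By nearness in level over the 2 libraries (distance in log2 of scaled RPKM plus 0.1), a few genes stood closest to each regulator, which with 2 libraries describes a pair of levels only. STAG3, a meiotic cohesin subunit, was closest to CREM, with 2.996 and 116 RPKM, followed by GAPDHS with 3.23 and 115 RPKM. RFX4 was closest to FHL5, with 0.0828 and 28.1 RPKM, followed by KIF2B with 0.0839 and 28.9 RPKM. WDR63 and PAQR5 were closest to BRDT, and ARRDC5 and HORMAD2, a protein of meiotic chromosome axes, to RFX2. SPATA3 and TEX43, both at 0 counts at 3 months, were closest to SPZ1. FAM134B and PDE3B were closest to MYBL1, and YIF1B and STRADA to TBPL1.

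Some of the 7 genes are also known outside the germ line, so markers of those cells are given beside them; their part in the result was not tested. Tubule pieces carried RNA of cells between the tubules: the 5 Leydig cell markers summed to 17615 CPM at 3 months and 2705 CPM at 9 months, and all 5 were lower. Smooth muscle and pericyte markers, relevant to FHL5, had 2 of 9 higher and 5 lower, and summed to 908 and 781 CPM. For this and the other lists, the shares over all measured genes were 27.7% higher and 23.2% lower. B cell markers, relevant to MYBL1, had 3 of 4 measured higher and summed to 4.57 and 14.4 CPM, with CD79A at 67 counts in both libraries and CD79B at 3 and 4 counts. Markers of multiciliated epithelium, relevant to RFX2, had 2 of 2 measured higher and summed to 0.845 and 11.5 CPM. FOXJ1 had 5 and 209 counts, and MCIDAS and CCNO were at 1 to 3 counts. Counts from bulk tissue do not show which cells carried this RNA.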

How the data were processed

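RNA was sequenced from seminiferous tubules of 1 calf aged 3 months and 1 aged 9 months, grouped by the age label. Per the submitters' processing notes, Trimmomatic 0.33, STAR 2.4.0 and genome build UMD3.1 were used; the counting program, annotation release, strand setting and handling of multiply aligned reads are, in the sources used here, not given. The deposited tables have no header. The deposited values are whole, unnormalized counts for each gene, a gene length in bases, and RPKM, which the authors' column gives as counts relative to gene length and to the table's own total (largest difference 0.000496%). All rows named a gene, and 0 columns belonged to other samples.

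Counts were scaled by TMM over all listed genes in edgeR 4.0.16 (R 4.3.3), with factors of 0.850 and 1.18. Every ratio sets 9 months over 3 months and has 95% exact conditional binomial (Clopper-Pearson) limits, which cover counting error only; PCR reads are not independent molecules. A gene was measured at 10 or more counts over both libraries, log2 ratios carry a prior count of 2, and folds against 0 counts use a floor of 3 counts. Counts of a symbol with 2 Ensembl genes were summed. The calculation was tested on simulated data with counting error only and far fewer changed genes than were called here. That test does not show how well the scaling holds for these libraries. With 1 library per age no test between ages was possible. Other steps ran in Python 3.11.15 (scipy 1.17.1, numpy 2.4.6).

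The members and lists were chosen with earlier results of these data known. Named were the 7 regulators, their paralogues, up to 4 genes per other list with the largest absolute log2 ratio at 5 CPM or more (of which a few are printed), and the 2 nearest genes per regulator. A few further list members are named for comparison and were chosen after their values were seen: TDRD12, CAPZA3, SMCP, GAPDHS, ACE, the cilium genes, TEX101, RNF17, GFRA1, UCHL1, NANOS2, KIT, GTF2A1, PRKACA, PRKAR1B, PRKACB, PRKAR2A, CREBBP, EP300, ZNF541, TAF4B, ZBTB16, DMRT1 and PRDM9. Of the 18025 measured genes 15687 had a symbol. SOHLH2, MEIOSIN, DMRTC2, ID4, LIN28A, PGK2 and DEUP1 matched no row, and SUN5 was matched by its older symbol SPAG4L in the RefSeq gene table (assembly ARS-UCD2.0). Alternatives were other scalings (DESeq2 1.42.0 for size factors), count minimums, prior counts and shares without length. TMM over measured genes was added after the data were seen. Some genes of the lists and 1 further scaling are not reported here. Of the marker lists whose calls are not given above, 5 of 8 Sertoli cell markers were lower and 1 higher, and 4 of 5 endothelial markers lower and 1 higher. Of 7 T cell and macrophage markers 3 were lower and 0 higher. Over all measured genes 27.7% were higher and 23.2% lower. All 4 germ cell markers of all stages were higher.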

Additional observations from a re-analysis of the deposited data

How the results depend on the processing

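All 7 regulators stayed at least 2-fold higher, and none was lower, under each scaling and count minimum tried. With a prior count of 10 their median log2 ratio was 6.03. The number of measured genes at least 2-fold lower, 4174 with TMM, was 2643 for plain totals and 6826 for reference genes, and the number of lower paralogues, 2 with TMM, was 1 and 5 in the same order. Without length scaling the shares of family counts were 28.5% and 50.98% for MYBL1 (3 and 9 months), 5.25% and 69.6% for CREM, 58.2% and 86.0% for TBPL1, and 0.0695% and 7.98% for BRDT, with 42.3% for RFX2 and 39.5% for FHL5 at 9 months. The share of each regulator was larger at 9 months in either way. No paired analysis was possible because each age had 1 library, and no library could be left out. The depth limits FHL5, BRDT and SPZ1 at 3 months, where 3, 10 and 0 counts leave wide intervals or a bound.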

Other observations

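The protein-coding genes next to each regulator in the RefSeq gene table (assembly ARS-UCD2.0, order only, looked up after the regulators' values were seen) were counted. Of 14 neighbours 10 were measured under the same symbol, of which 1 was higher, 2 lower and 7 within 2-fold, beside 27.7% higher and 23.2% lower over all measured genes. The higher neighbour was ACSBG2, a testis-expressed acyl-CoA synthetase gene beside RFX2, with 3 counts at 3 months and 6047 at 9 months. TCF21, beside TBPL1, was 15.2-fold lower, and TGFBR3, beside BRDT, 2.57-fold lower. SLC2A12, which overlaps TBPL1 in that assembly, had 288 and 253 counts, against 656 and 3471 for TBPL1.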
